A study of Homo sapiens with 6 samples.

Results

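The genes described here are 46 genes of the lysosome, chosen by symbol from the 25445 rows of the deposited count table. They encode 15 subunits and partners of the vacuolar proton pump (V-ATPase), 8 proteins of the lysosomal membrane, 6 cathepsins, 14 acid hydrolases and other lumenal proteins, and the 3 transcription factors TFEB, TFE3 and MITF. All 46 were found once in the table and all 46 passed the filter on low counts, so none was lost. RNA sequencing was performed in MHCC-97H, an established human liver cancer cell line, after 16 h with 6j, a sophoridine derivative (sophoridine is an alkaloid of plants). The 3 libraries of 6j treated cells received 10 μM of 6j, and the 3 libraries of non-treated cells received only the solvent for the same time. All were cultured in the same serum-supplemented medium, and nothing in the labels says that the replicates of a group were separate cultures, so the p-values describe the spread between these libraries. One cell line, one dose and one time point were sequenced.

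The total count was 31533403 to 38018349 per library, and 15957 rows were tested. Of 11 hepatocyte and hepatoma markers, only KRT8, KRT18 and HNF4A passed the filter, and the other 8, among them ALB and AFP, stayed at or below 0.262 CPM (counts scaled to the normalized library size) in every library. Thus these cells carried epithelial keratins but hardly any transcript of the secreted liver proteins. KRT8 was lower in 6j treated cells (605 ± 77.2 and 404 ± 47.0 CPM, SD, n = 3 each), a call kept in 2 of the 6 fits that left out 1 library. KRT18 also had all 6j libraries below all non-treated ones (430 ± 36.3 and 344 ± 23.1 CPM, SD, n = 3 each), while the groups of HNF4A overlapped. KRT18 was not called in edgeR (adjusted p = 0.0661) but was called lower in DESeq2 (adjusted p = 0.0152). For KRT8 and KRT18, 50 and 67 pseudogenes named after them are annotated, and their exons overlap on opposite strands. Of the 5 immune markers, 4 were at 0 in all libraries and CD14 did not exceed 0.961 CPM. The endothelial markers summed to 1.86 to 6.25 CPM, and among 4 fibroblast markers only COL1A1 was abundant, at 203 to 275 CPM with overlapping groups. In such bulk RNA, fewer cells of a type and less RNA per cell cannot be told apart. The part of the keratin difference in the results was not tested.

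The lysosome is the acidic compartment in which proteins, glycans and lipids are taken apart. The V-ATPase pumps protons into it: a membrane sector (V0) carries the protons and a cytosolic sector (V1) burns ATP to drive them. Hydrolases reach it from the Golgi, mostly on mannose 6-phosphate receptors, and channels and transporters in its membrane let ions and breakdown products out. TFEB, TFE3 and MITF are related basic helix-loop-helix factors that bind E-box letters in promoters of many lysosomal genes, and in nutrient-rich cells they are held in the cytosol by mTORC1 and the Rag GTPases. Liver cells depend on this compartment for the turnover of organelles and lipoproteins.

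Because these factors read E-box letters, the promoters of the members were searched for TCACGTG on either strand, the core of the so-called CLEAR element. The windows came from RefSeq (GRCh38.p14) and ran from 250 bases before to 50 bases after each annotated gene start. They were held for 35 of the 46 members, in 52 windows because some genes have several starts. ATP6V0E1, ATP6V1A, ATP6V1B2, ATP6V1C1, ATP6V1H, LAMP2, CTSB, HEXA, ASAH1, NAGLU and PSAP have no entry. TCACGTG stood in 10 of the 52 windows (19.2%), 1 for each of 10 genes, against 3.71% of all 35116 windows. The shorter CACGTG, which lies within it, stood in 11 windows (21.2%) against 7.26% of all. The members were chosen as genes of the lysosome, and such letters are known from the promoters of many lysosomal genes. The higher shares therefore follow from the choice of members, and they say nothing about the treatment.

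The nearest sites whose stretch ends before the start are shown because the members that rose and the members that did not can be compared by them. Each is a stretch of 30 bases on the strand of the gene, 5′ to 3′, with TCACGTG or its complement in capitals. Where it stands on both strands at once, the shared palindrome is in capitals. The first 6 genes rose in 6j treated cells and the last 4 did not pass the threshold.
NEU1: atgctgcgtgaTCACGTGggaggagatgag
CLCN7: cccgtcgcgcgTCACGTGgccgccggcgcg
CTSD: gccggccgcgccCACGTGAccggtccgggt
MCOLN1: accagaggcggTCACGTGAggggctctggg
ATP6V1G1: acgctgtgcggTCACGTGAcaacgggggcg
CTSA: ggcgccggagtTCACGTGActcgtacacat
ATP6V0D1: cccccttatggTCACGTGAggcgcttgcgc
ATP6V0B: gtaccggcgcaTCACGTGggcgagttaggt
LAMP1: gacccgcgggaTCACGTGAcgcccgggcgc
GAA: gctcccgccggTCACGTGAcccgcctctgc

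In the order printed, the stretches lie at chr6:31862930-31862959 (minus strand), chr16:1475038-1475067 (minus), chr11:1763957-1763986 (minus), chr19:7522571-7522600 (plus), chr9:114587699-114587728 (plus), chr20:45891298-45891327 (plus), chr16:67481199-67481228 (minus), chr1:43974909-43974938 (plus), chr13:113297199-113297228 (plus) and chr17:80101538-80101567 (plus). In GENCODE version 29, which holds longer transcripts for some of these genes, the stretches of CLCN7, CTSD, CTSA, ATP6V0D1 and ATP6V0B lie wholly in an annotated exon of the gene, that of GAA in part, and those of NEU1, MCOLN1, ATP6V1G1 and LAMP1 outside the exons of the gene.

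Counted from the start, with −1 as the base just before it, the CACGTG letters began at −126 in NEU1, −47 and −27 in CLCN7, −47 in CTSD, −58 in ATP6V1G1 and −42 and −25 in CTSA. LAMP1 held 6 sites, from −192 to −1, the most of any member. MCOLN1, the gene of the calcium channel mucolipin 1, held 2 palindromic sites, and the 130 bases before its start (chr19:7522494-7522623, plus strand, no annotated exon of MCOLN1) show both.
MCOLN1: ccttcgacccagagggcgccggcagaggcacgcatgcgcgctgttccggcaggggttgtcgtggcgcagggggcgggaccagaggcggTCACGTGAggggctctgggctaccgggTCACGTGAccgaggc

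In 6j treated cells, 13 of the 46 genes rose and none fell at a Benjamini-Hochberg adjusted p under 0.05 over all 15957 rows in edgeR. The background was 4.79% of all rows called higher and 4.37% called lower, with 6.36% called higher among the rows at least as abundant as the lowest member. TFEB set that level, at a mean of 7.40 CPM. All other members were more abundant, so this share is not matched to their levels. The 13 were NEU1, TPP1, CLCN7, CTSD, CTNS, PSAP, GRN, ASAH1, MCOLN1, ATP6V1B2, ATP6V1G1, CTSA and ATP6V1C1. With the study's further demand of a fold change above 1.5, only NEU1, TPP1, CLCN7 and CTSD were differentially expressed genes, or DEGs (2.48% of all rows were DEGs that rose and 1.12% DEGs that fell). The study took its DEGs from DESeq2 at p under 0.05 and this fold change, so its definition differs from the one used here. The median log2 fold change (log2FC, 6j treated over non-treated) of the 46 was 0.18, against 0.00 over all rows, and 34 of the 46 lay above 0. The 3 libraries of 6j treated cells lay wholly above those of non-treated cells for 18 members and wholly below for 3 (CTSC, CTSZ and TFEB), where this held for 16% and 15.8% of all rows. At an unadjusted p under 0.05, 17 members were higher and these 3 lower, where 13.1% and 13% of all rows were. DESeq2 called 16 members higher and 2 lower, against 8.25% and 8.04% of the 14361 rows to which it gave an adjusted p.

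**Figure D1:**
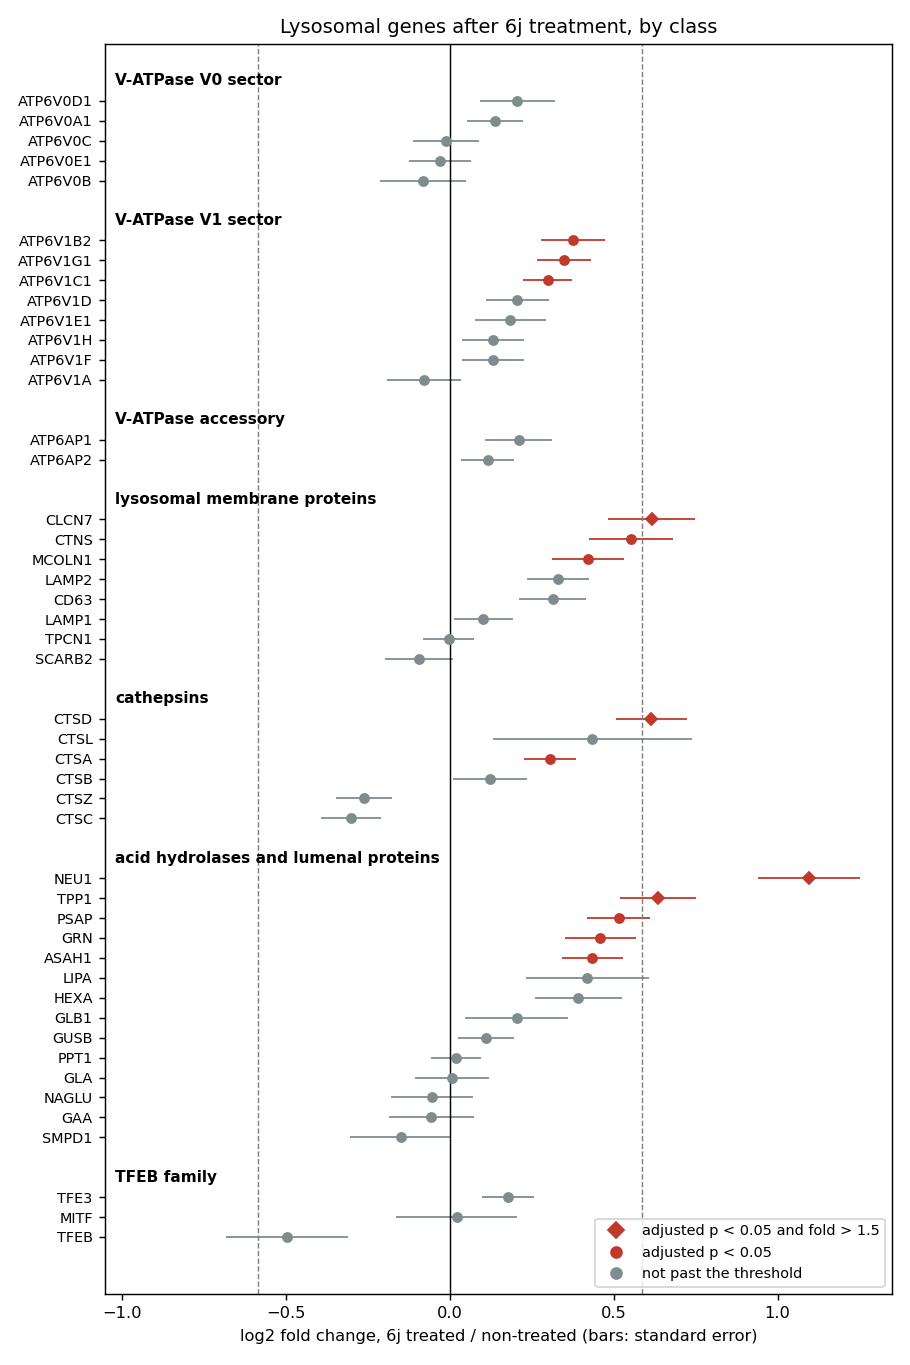
The log2FC (6j treated over non-treated) of each of the 46 genes is plotted on the horizontal axis by class, with bars for its standard error. Diamonds mark the 4 DEGs, red circles the other 9 genes that passed an adjusted p under 0.05, grey circles the rest, and dashed lines a 1.5-fold change. NEU1 stands apart at 1.10, no V0 subunit is red, and CTSC, CTSZ and TFEB lie to the left.

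The calls rested on few libraries. When either non-treated replicate 1 or 6j replicate 2 was left out, only NEU1 was still called, and without non-treated replicate 3 only 3 members were. Over all rows, the genes called higher also fell from 765 to 139, 152 and 364 in these fits. For all 13 genes the 6j libraries lay wholly above the non-treated ones. Their direction could therefore hardly turn in the 6 fits that left out 1 library, and it did not. Libraries of the same replicate number deviated together, and when that number entered edgeR as a block, 22 members were called higher and 3 lower, against 13.1% and 13.9% of all rows. The genes gained by the block were ATP6V0D1, ATP6V1D, ATP6V1E1, ATP6AP1, LAMP2, CD63, GLB1, HEXA and LIPA, which were higher, and CTSC, CTSZ and TFEB, which were lower. The number of DEGs among the members stayed at 4 with the block. Non-treated replicate 2 was the highest of its group for 34 of the 46 members (73.9%), against 33.1% of all rows, and its part in the results was not tested.

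**Figure D2:**
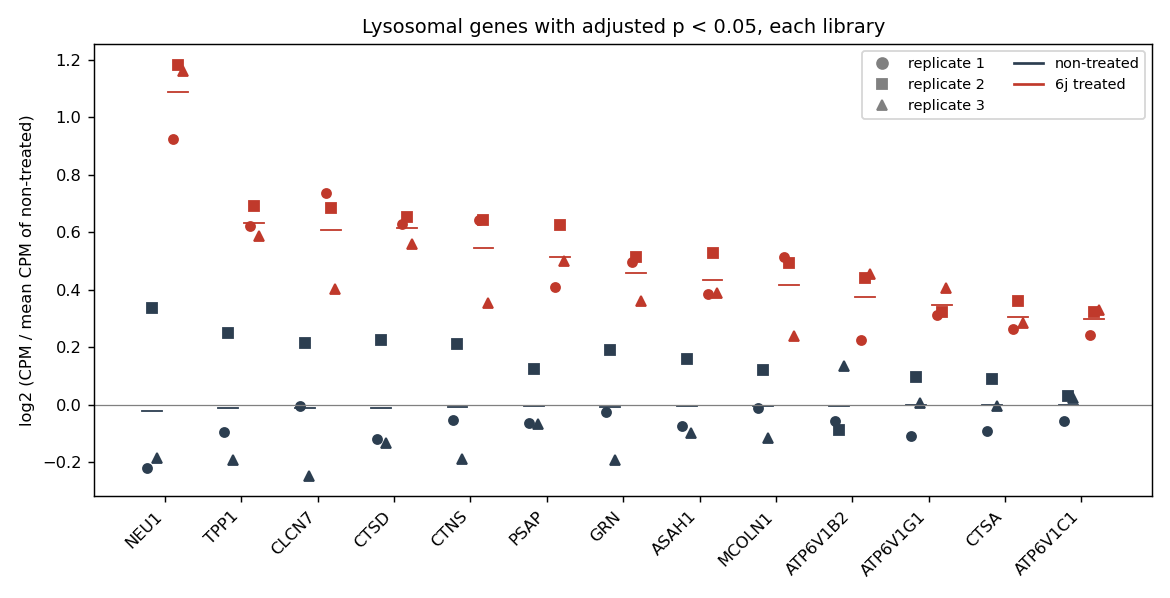
For the 13 genes that rose, each library is plotted as the log2 of its CPM over the mean CPM of the non-treated libraries. Dark symbols are non-treated and red symbols 6j treated libraries, the shape gives the replicate number, and the short lines are means of the log2 values. In every gene the 3 red symbols lie above the 3 dark ones, and non-treated replicate 2 is the highest dark symbol in 12 of the 13.

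Among the acid hydrolases, NEU1 changed most. It encodes the lysosomal sialidase, which removes terminal sialic acids from glycoproteins and gangliosides (chromosome 6, 31857659 to 31862906, minus strand). Its level was 43.4, 63.9 and 44.5 CPM in replicates 1, 2 and 3 without 6j and 96.1, 115 and 113 CPM with 6j. The groups were thus far apart, with the lowest 6j library well above the highest non-treated one. The means were 50.6 ± 11.5 and 108 ± 10.4 CPM (SD, n = 3 each), a 2.14-fold rise (log2FC 1.10 ± 0.15, SE, adjusted p = 0.00821 in edgeR). NEU1 was called in all 6 fits that left out 1 library, where its log2FC ran from 1.00 to 1.30.

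TPP1 encodes tripeptidyl peptidase 1, the serine protease that is lost in a childhood form of neuronal ceroid lipofuscinosis. It was measured at 161, 205 and 151 CPM without 6j and at 265, 278 and 259 CPM with 6j (replicates 1, 2 and 3). The 6j libraries were close to each other and all above the non-treated ones, and the log2FC was 0.63 ± 0.11 (SE, adjusted p = 0.0135 in edgeR). Leaving out non-treated replicate 1, or 6j replicate 2, lost the call.

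PSAP, GRN and ASAH1 also rose. PSAP encodes prosaposin, which is cut into the saposins that present sphingolipids to their hydrolases, and had the highest level per length of all members. Its CPM was 472, 537 and 470 in non-treated and 656, 761 and 697 in 6j treated replicates 1 to 3, with no overlap (log2FC 0.52 ± 0.10, SE, adjusted p = 0.0148 in edgeR). GRN, the progranulin gene, was at 394, 458 and 351 CPM and at 566, 573 and 515 CPM. Its log2FC was 0.46 ± 0.11 (SE, adjusted p = 0.0331 in edgeR). ASAH1 encodes acid ceramidase, which splits ceramide, and was at 78.6, 92.4 and 77.2 CPM without 6j and 108, 119 and 108 CPM with 6j. This was a log2FC of 0.44 ± 0.09 (SE, adjusted p = 0.0238 in edgeR).

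The other 9 of the 14 genes of this class did not pass the threshold, where 4.79% of all rows were called higher and 4.37% lower. LIPA, the acid lipase gene that frees cholesterol from its esters, varied by replicate number, with 94.8, 133 and 89.5 CPM without 6j and 131, 173 and 120 CPM with 6j. Non-treated replicate 2 therefore overlapped the 6j group, while each pair moved up by a log2 change of 0.38 to 0.47. The adjusted p for LIPA was 0.205 without and 0.000609 in the blocked fit in edgeR. HEXA, a subunit of the enzyme that degrades GM2 ganglioside, had 102 ± 16.3 and 134 ± 17 CPM (SD, n = 3 each) without overlap, with an adjusted p of 0.102 and of 0.00129 with the block in edgeR. GLB1, the beta-galactosidase gene, had a log2FC of 0.20 (adjusted p = 0.461, and 0.0297 with the block, in edgeR). GUSB (0.11), PPT1 (0.02), GLA (0.01), GAA (−0.06), NAGLU (−0.06) and SMPD1 (−0.15) had overlapping groups. PPT1, a palmitoyl-protein thioesterase whose loss, like that of TPP1, gives ceroid lipofuscinosis, stayed at 251 to 268 CPM without 6j and 252 to 272 CPM in 6j treated libraries.

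Of the 6 cathepsins, 2 rose, CTSD and CTSA, where 4.79% of all rows were called higher and 4.37% lower. CTSD encodes the aspartic protease cathepsin D (chromosome 11, 1752752 to 1764573, minus strand) and shares exons on its strand with AC068580.4. It was at 210, 267 and 208 CPM without 6j and 353, 360 and 337 CPM with 6j (replicates 1 to 3). The groups did not overlap, and the log2FC was 0.61 ± 0.11 (SE, adjusted p = 0.012 in edgeR), a call lost without non-treated replicate 1 or 6j replicate 2. CTSA, the protective protein that forms a complex with neuraminidase and beta-galactosidase, was at 145, 165 and 154 CPM and at 186, 199 and 189 CPM. Its log2FC was 0.30 ± 0.08 (SE, adjusted p = 0.0454 in edgeR), and this call was lost in each of the 6 fits that left out 1 library.

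CTSC and CTSZ had negative log2FCs that did not pass the threshold without the block. CTSC encodes dipeptidyl peptidase 1, which activates serine proteases of granules, and was at 56.6, 58.3 and 57.8 CPM without 6j and 51.4, 46.2 and 42.6 CPM with 6j. Its log2FC was −0.30 ± 0.09 (SE, adjusted p = 0.0716, and 0.0114 with the block, in edgeR). CTSZ, a carboxypeptidase gene, was at 226, 226 and 225 CPM and at 204, 170 and 190 CPM, a log2FC of −0.26 (adjusted p = 0.0917, and 0.0118 with the block, in edgeR). All 6j libraries were below all non-treated ones for both genes. DESeq2 called both lower (adjusted p = 0.0432 for CTSC and 0.0464 for CTSZ).

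The cysteine proteases CTSL and CTSB were not called. CTSL varied most among the non-treated libraries, at 285, 406 and 180 CPM, and was at 406, 443 and 328 CPM with 6j (log2FC 0.43 ± 0.30, SE, adjusted p = 0.436 in edgeR). CTSB was at 128 ± 7.89 and 140 ± 21.4 CPM (SD, n = 3 each), where 6j replicate 3 alone was raised, at 164 CPM. For CTSL, 5 pseudogenes named after it are annotated, and reads could have been split with them.

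Of the 8 genes of the lysosomal membrane, 3 rose, the ion exchanger gene CLCN7, the transporter gene CTNS and the channel gene MCOLN1. Over all rows, 4.79% were called higher and 4.37% lower. CLCN7 encodes the chloride-proton exchanger ClC-7 (chromosome 16, 1444934 to 1475580, minus strand). It was at 141, 164 and 119 CPM without 6j and 237, 228 and 187 CPM with 6j (replicates 1 to 3), with no overlap (log2FC 0.62 ± 0.13, SE, adjusted p = 0.0245 in edgeR). CTNS, the cystine exporter cystinosin, was at 31.4, 37.7 and 28.6 CPM and at 50.9, 50.8 and 41.6 CPM. Its log2FC of 0.55 ± 0.13 (SE, adjusted p = 0.031 in edgeR) was just under the 1.5-fold threshold. MCOLN1, the calcium channel of the printed promoter, was at 32.7, 35.8 and 30.4 CPM and at 47.1, 46.4 and 39.0 CPM. It had a log2FC of 0.42 ± 0.11 (SE, adjusted p = 0.0436 in edgeR) and shares exons with PNPLA6 and AC008878.2. CLCN7 and CTNS were called in 2 and MCOLN1 in 1 of the 6 fits that left out 1 library. The cation channel gene TPCN1 had overlapping groups, with 88.9 ± 1.30 and 88.7 ± 5.40 CPM (SD, n = 3 each).

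LAMP1 and LAMP2 encode the heavily glycosylated proteins that line the membrane, and LAMP2 also takes part in chaperone-mediated autophagy. LAMP1 was at 291, 326 and 279 CPM without 6j and 335, 324 and 302 CPM with 6j, with overlap (log2FC 0.10, adjusted p = 0.522 in edgeR). LAMP2 was at 144, 169 and 146 CPM and at 177, 205 and 194 CPM, without overlap. Its log2FC was 0.33 (adjusted p = 0.0589, and 0.0024 with the block, in edgeR). The tetraspanin gene CD63 was also apart, at 232 to 263 and 270 to 343 CPM (log2FC 0.31, adjusted p = 0.09, and 0.00692 with the block, in edgeR). SCARB2, the receptor that carries glucocerebrosidase to the lysosome, had a log2FC of −0.09 and overlapping groups.

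Of the 15 V-ATPase genes, 3 rose. None of the 5 V0 genes passed the threshold in edgeR, none had an unadjusted p under 0.05 and DESeq2 called none. Over all rows, edgeR called 4.79% higher and 4.37% lower, and DESeq2 called 8.25% and 8.04%. At an unadjusted p under 0.05 the shares were 13.1% and 13%. With only 5 genes, a count of none is not far from these shares. The log2FCs of the V0 genes ran from −0.08 (ATP6V0B) to 0.21 (ATP6V0D1). Of the 8 V1 genes, 3 rose: ATP6V1B2, a subunit of the ATP-burning head, ATP6V1C1, a stalk subunit that joins V1 to V0, and ATP6V1G1, a subunit of the peripheral stalk. ATP6V1B2 was at 56.9, 55.6 and 65.1 CPM without 6j and 69.3, 80.3 and 81.0 CPM with 6j in replicates 1 to 3 (log2FC 0.38, adjusted p = 0.0438 in edgeR). ATP6V1G1, after which 5 pseudogenes are named, was at 98.3, 113 and 107 CPM and at 132, 133 and 141 CPM (log2FC 0.35, adjusted p = 0.0331 in edgeR). ATP6V1C1 was at 94.7, 101 and 100 CPM and at 117, 123 and 124 CPM (log2FC 0.30, adjusted p = 0.0394 in edgeR). The groups did not overlap in any of these, and each was called in only 1 of the 6 fits that left out 1 library.

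The catalytic subunit ATP6V1A, the partner of ATP6V1B2 in the head, had overlapping groups, at 148 ± 16.4 and 140 ± 16.8 CPM (SD, n = 3 each; log2FC −0.08, standard error 0.11). ATP6V1D (0.21), ATP6V1E1 (0.19), ATP6V1H (0.13) and ATP6V1F (0.13) had overlapping groups, as did the accessory genes ATP6AP1 (0.21) and ATP6AP2 (0.12). The blocked fit in edgeR gave adjusted p-values of 0.0272 for ATP6V0D1, 0.0331 for ATP6V1D, 0.0463 for ATP6V1E1 and 0.0221 for ATP6AP1. Summed over its 15 genes, the V-ATPase had 1568 ± 74.8 CPM without 6j and 1725 ± 46.9 CPM in 6j treated cells (SD, n = 3 each), a ratio of 1.10. The same ratio was 1.20 for the 8 membrane proteins, 1.21 for the 6 cathepsins and 1.31 for the 14 acid hydrolases and lumenal proteins. The sum of the last class was 1972, 2245 and 1826 CPM without 6j and 2608, 2797 and 2506 CPM with 6j, without overlap. The sums of the cathepsins overlapped, with non-treated replicate 2 at 1255 CPM and 6j replicate 3 at 1251 CPM. All these class sums are dominated by the abundant genes, such as PSAP and GRN, or CTSL among the cathepsins.

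Levels can be compared between genes only per length, and CPM was divided by the kilobases of annotated exon. On this scale of levels, PSAP (152), CTSL (123), CTSZ (111) and GRN (109) were the highest in non-treated cells, while TFEB (1.53) was the lowest. In 6j treated cells the order at the top was PSAP (218), CTSL (166), GRN (150), CD63 (116) and CTSD (112). Within the V-ATPase, ATP6V1G1 (81.3) and ATP6V0C (80.7) were the highest and ATP6V0A1 (5.26) the lowest in non-treated cells. Exon lengths of all transcripts were joined, so a gene with long rare exons is placed too low.

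**Figure D3:**
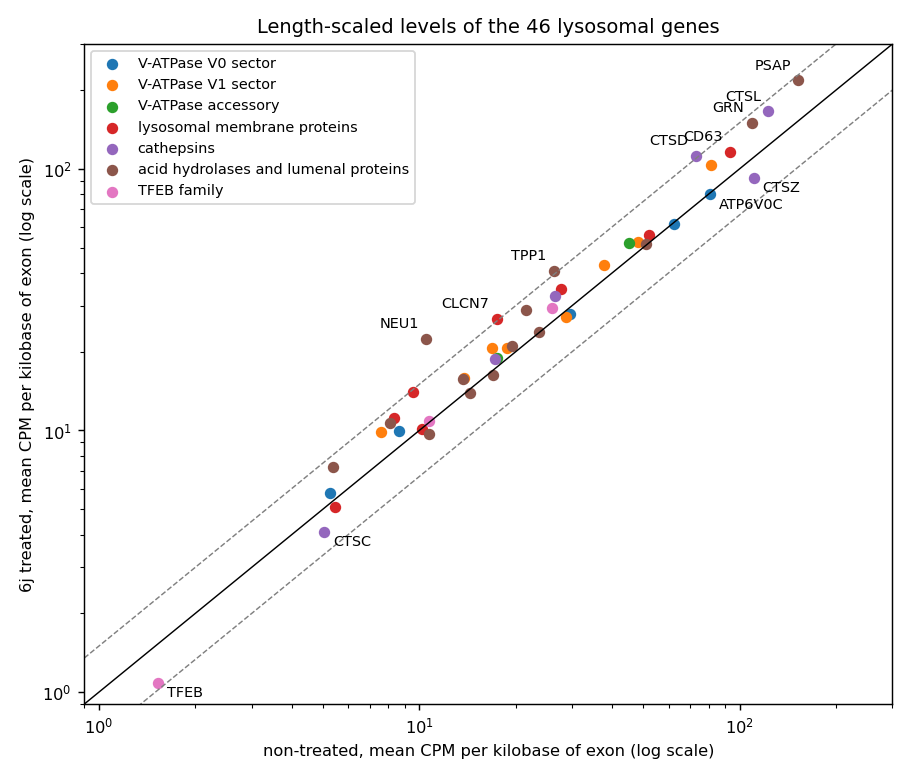
Each point is 1 of the 46 genes, with its mean CPM per kilobase of exon in non-treated cells on the horizontal and in 6j treated cells on the vertical axis, both on log scales. The solid line marks equal levels and the dashed lines a 1.5-fold difference. NEU1 lies well above the upper dashed line, TFEB is the lowest gene in both groups, and most V-ATPase genes lie close to the solid line.

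None of the 3 transcription factor genes passed the threshold in edgeR or DESeq2, and at an unadjusted p under 0.05 TFE3 was higher and TFEB lower. The shares of all rows were 4.79% higher and 4.37% lower in edgeR and 8.25% and 8.04% in DESeq2. At an unadjusted p under 0.05 they were 13.1% and 13%. TFEB had few transcripts, at 7.25, 8.79 and 9.97 CPM without 6j and 5.86, 7.09 and 5.47 CPM with 6j, so that all 6j libraries were below all non-treated ones. Its log2FC was −0.50 ± 0.19 (SE, adjusted p = 0.127, and 0.0453 with the block, in edgeR). TFE3 was far more abundant and was at 106, 109 and 119 CPM and at 123, 128 and 126 CPM, again without overlap (log2FC 0.18 ± 0.08, SE, adjusted p = 0.189 in edgeR). MITF followed the replicate number, at 66.3, 68.4 and 97.1 CPM and at 67.2, 72.0 and 96.0 CPM, and the difference between the groups was small (log2FC 0.02, standard error 0.19). These are transcript levels, and where in the cell the factors were was not measured. Of the 10 members with a TCACGTG site in a searched window, 6 rose (median log2FC of the 10, 0.33). Of the 25 with windows but no site in them, 3 rose (CTNS, GRN and TPP1, median of the 25, 0.13). Over all rows, 4.79% were called higher without the block and 13.1% with it, and rows with such a site were not counted apart. This split moved with the fit: in the blocked fit 7 of the 10 and 9 of the 25 were higher and 3 of the 25 lower, and leaving out non-treated replicate 1, or 6j replicate 2, left only NEU1 of the 9 genes that rose. GAA, with 2 sites, and LAMP1, with 6, were among those that did not pass the threshold. PSAP, ASAH1, ATP6V1B2 and ATP6V1C1 also rose but had no window, so they are not in this split. The motif was chosen with earlier results of these data known, and the part of the sites in the results was not tested.

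The genes that control TFEB were listed apart from the members, with earlier results of these data known. Folliculin (FLCN) with its partners FNIP1 and FNIP2 activates RagC and RagD, which bring TFEB and TFE3 to mTORC1 on the lysosome, and genes of this switch are themselves known targets of the factors. Of 15 tested genes on the list, 5 rose (FLCN, FNIP1, RRAGC, RRAGD and LAMTOR3) and 1 fell (LAMTOR2). Over all rows, 4.79% were called higher and 4.37% lower. RRAGD was at 1.51, 2.28 and 1.44 CPM without 6j and 5.49, 8.28 and 5.59 CPM with 6j (replicates 1 to 3). This was a 3.70-fold rise (log2FC 1.89 ± 0.28, SE, adjusted p = 0.0076 in edgeR) from a low level. RRAGC was at 35.4, 36.4 and 29 CPM and at 70.1, 78.6 and 65.8 CPM, a 2.13-fold rise (log2FC 1.09 ± 0.11, SE, adjusted p = 0.002 in edgeR).

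FLCN was at 38.3, 46.7 and 33.1 CPM without 6j and 70.1, 79.3 and 73.1 CPM with 6j (log2FC 0.91 ± 0.13, SE, adjusted p = 0.00649 in edgeR). FNIP1 was at 37.4, 44.6 and 41.0 CPM and at 64.4, 77.2 and 64.5 CPM (log2FC 0.75 ± 0.11, SE, adjusted p = 0.00713 in edgeR). FLCN shares exons on its strand with AC055811.2, and FNIP1 with AC008695.1. RRAGC, RRAGD, FLCN and FNIP1 were DEGs, were called in all 6 fits that left out 1 library, and showed no overlap between the groups. Their relatives RRAGA and RRAGB had log2FCs of 0.10 and 0.31 and were not called, and neither was FNIP2 (0.61, adjusted p = 0.0725, and 0.00079 with the block, in edgeR). Among the 5 subunits of Ragulator, the anchor of the Rag GTPases, LAMTOR2 fell from 35.4 ± 1.79 to 25.9 ± 0.233 CPM and LAMTOR3 rose from 17.3 ± 1.12 to 23.5 ± 0.593 CPM (SD, n = 3 each). Their adjusted p-values in edgeR were 0.019 and 0.0316. For comparison, ATF3 and DDIT3, which were followed up in the study, had log2FCs of 1.60 and 2.27.

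**Figure D4:**
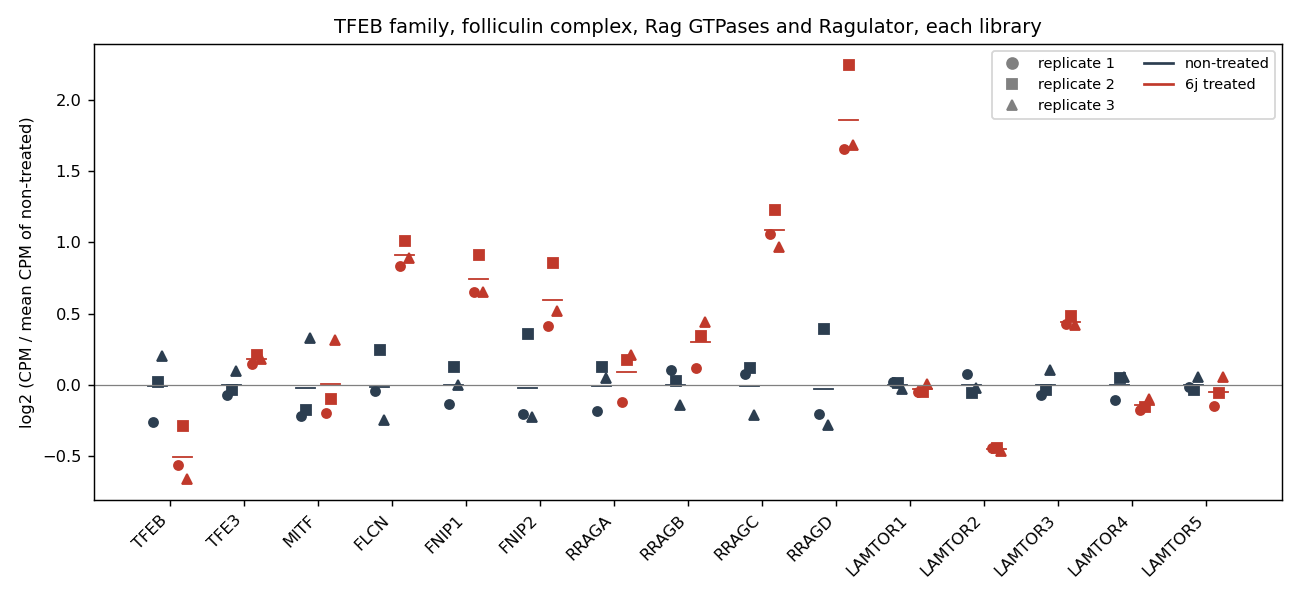
The 3 factors of the TFEB family and 12 genes of the folliculin complex, the Rag GTPases and Ragulator are plotted by library, as the log2 of CPM over the mean CPM of the non-treated libraries. Dark symbols are non-treated and red symbols 6j treated libraries, shapes give the replicate number and short lines the means of the log2 values. RRAGD, RRAGC, FLCN and FNIP1 lie high above 0 in all 3 red symbols, while those of TFEB and LAMTOR2 lie below 0.

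Other genes of the compartment were counted in 6 more lists, where the shares of all rows were 4.79% called higher and 4.37% called lower. Of 24 other membrane proteins, 4 rose: SLC17A5, the sialic acid exporter (log2FC 0.76, adjusted p = 0.0161 in edgeR), NPC1, the cholesterol exporter (0.80, 0.0264), PIP4P1, a phosphoinositide phosphatase (0.49, 0.0153), and OSTM1, the beta subunit of ClC-7 (0.48, 0.0272). The other 20 genes of this list were not called. Among the members, CLCN7, the partner of OSTM1, rose, and so did NEU1, which releases the sialic acid that SLC17A5 exports. These pairs were put together from called genes, and whether they changed together was not tested. Among 29 tested hydrolases and lumenal proteins, NPC2, the lumenal cholesterol carrier, rose (log2FC 0.47, adjusted p = 0.0438 in edgeR). The median of these 29 was −0.02, and GALC was listed at 0 in all libraries.

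Of the 9 genes that tag and sort hydrolases, both mannose 6-phosphate receptors rose, IGF2R from 216 ± 18.2 to 293 ± 22.0 CPM and M6PR from 147 ± 9.72 to 185 ± 5.11 CPM (SD, n = 3 each, adjusted p = 0.0233 and 0.0348 in edgeR). Among 7 tested V-ATPase subunits outside the members, TCIRG1, the a3 form of the V0 subunit that also sits in osteoclasts, fell from 34.4 ± 2.48 to 20.5 ± 3.31 CPM (SD, n = 3 each). Its log2FC of −0.75 had an adjusted p of 0.0127 in edgeR, while the a1 form ATP6V0A1 had a log2FC of 0.14 and was not called. None of the 9 V-ATPase assembly factors and none of the 6 tested genes of the response to damaged lysosomes passed the threshold in edgeR. At an unadjusted p under 0.05 there were 1 and 4 such genes (13.1% higher and 13% lower over all rows), and DESeq2 called 1 and 2 (8.25% and 8.04%). The nearest were ROGDI (−0.66, adjusted p = 0.0951) and WDR7 (−0.23, 0.211) in the former, and PI4K2A (0.32, 0.0716) and LGALS9 (−1.94, 0.112, under 3 CPM in every library) in the latter. The blocked fit in edgeR gave adjusted p-values of 0.0114 for ROGDI, 0.00264 for PI4K2A and 0.00649 for LGALS9. DESeq2 also called these 3. In the blocked fit 5 of the 6 genes of the response to damaged lysosomes passed the threshold, with LGALS8 and TRIM16 higher like PI4K2A and LGALS1 lower like LGALS9. Over all rows, that fit called 13.1% higher and 13.9% lower. The directions in this short list were thus mixed. After TCIRG1, ATP6V1C2 had the smallest p of the other V-ATPase subunits (−0.50, adjusted p = 0.191 in edgeR). Over all of these lists with the TFEB regulators, 105 genes of which 99 were tested, 13 rose and 2 fell, and the blocked fit called 27 higher and 11 lower. The shares of all rows were 4.79% higher and 4.37% lower without the block and 13.1% and 13.9% with it. Of the 15 genes called without the block, only RRAGC, RRAGD, FLCN and FNIP1 were still called when non-treated replicate 1 or 6j replicate 2 was left out. M6PR, NPC2 and LAMTOR3 were called in 1 of the 6 fits that left out 1 library.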

How the data were processed

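Per gene, the authors deposited raw counts (whole numbers) in a single table with a column per library. Poly(A) RNA had been selected with oligo(dT) beads. The submitters' processing notes name HISAT2, StringTie and GRCh38. Versions, the counting program and the use of strand are not given in the sources used here, so reads of overlapping genes cannot be told apart.

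After filterByExpr and TMM normalization, counts were tested by robust quasi-likelihood fits in edgeR 4.0.16 (R 4.3.3, limma 3.58.1) without covariates. Benjamini-Hochberg adjustment ran over all 15957 rows, unnamed new genes included, and calls needed an adjusted p under 0.05. The standard error is the log2 fold change over the root of F. DESeq2 1.42.0, a replicate block, RLE normalization, no filter, Ensembl genes only and leaving out each library were alternatives. The fits were tested on simulated data. Coordinates and exon lengths are those of GENCODE version 29.

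The members, lists and motifs were chosen with earlier results of these data known. The text names all members, the 2 genes of each further list with the smallest p, every other called gene of it, and ATF3 and DDIT3. An item that this rule would name is not reported here, though the counts over lists include it. FNIP2, RRAGA, RRAGB, GALC, LGALS1, LGALS8 and TRIM16 were added after their values were seen.

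Deviations from group means correlated at 0.171, 0.18 and 0.312 between libraries of the same replicate number and at −0.231 to 0.0795 between others. All pairs were thus above 0.1, and the numbers were taken to pair the libraries. What a number marks is not stated. The depth of 31533403 to 38018349 counts per library and 3 libraries per group set the precision.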

Additional observations from a re-analysis of the deposited data

How the results depend on the processing

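Every choice below was planned. With the replicate block, the pairing by number gave 1033 DEGs over all rows (574 without it), 2084 rows higher and 2213 lower, and 22 members higher and 3 lower. DESeq2 gave 1185 rows higher and 1155 lower, and 2 members lower. The cause was not tested. RLE normalization, no filter on low counts and the fit to Ensembl genes only kept each of these counts within 1.5 times, and the last turned the near-zero log2 fold changes of ATP6V0C and TPCN1 to 0.0045 and 0.014.

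Leaving out 1 library at a time (fewer samples), the DEGs over all rows ranged from 186 to 772, the rows higher from 139 to 826 and lower from 63 to 782, the members higher from 1 to 10 and lower from 0 to 1, and the DEGs among members from 1 to 5. The lowest counts came without non-treated replicate 1 or 6j replicate 2. In the same fits the sign turned in members near 0, with log2 fold changes of −0.19 to 0.025 for ATP6V0B, −0.12 to 0.057 for ATP6V0C, −0.11 to 0.039 for ATP6V0E1, −0.18 to 0.016 for ATP6V1A, −0.16 to 0.013 for SCARB2, −0.048 to 0.040 for TPCN1, −0.011 to 0.19 for CTSB, −0.076 to 0.11 for GLA, −0.18 to 0.052 for GAA, −0.16 to 0.042 for NAGLU, −0.0065 to 0.051 for PPT1 and −0.15 to 0.22 for MITF. With 3 libraries per group, changes of the size seen in most V-ATPase genes were near the spread between libraries.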
